A study of Mus musculus with 4 samples.

Results

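The unfolded protein response and endoplasmic reticulum (ER) chaperone genes described here are 32 listed genes, taken by symbol from the 30406 genes that all 4 libraries of the study measured. They fall into 15 chaperones and folding enzymes, 8 genes of ER-associated degradation (ERAD) and translocation, 3 stress sensors together with Xbp1 (4 genes), and 5 genes of the Atf4 arm. Single-cell RNA sequencing (scRNAseq) was performed on cells of the popliteal lymphatic vessels and the adjacent saphenous vein of the mouse hind limb, to ask which cells these vessels hold and how they differ in inflammatory arthritis. Each library pooled 3 mice on a C57BL/6J background. The tdT1 and tdT2 libraries held tdTomato-positive cells sorted from male and female CSPG4-Cre;tdTomato mice older than 8 months, in which Cre under the Cspg4 promoter switches on the Ai9 reporter for good in any cell that has ever used that promoter. The WT library came from C57BL6 males and the TNF-Tg library from males of a transgenic line that carries a human TNF transgene and develops erosive arthritis, both labelled as 9 months old and both sorted by light scatter without a reporter. WT and TNF-Tg were 1 library each, so genotype and library cannot be told apart and no test was made between them. The intervals on single libraries cover counting error only.

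The ER folds secreted and membrane proteins, and fibroblast-like and muscle cells that lay down matrix, as well as phagocytes that secrete cytokines and complement, depend on it. When unfolded protein accumulates, the BiP chaperone leaves the lumenal domains of the sensors IRE1 (Ern1), PERK (Eif2ak3) and ATF6. IRE1 splices Xbp1 mRNA and ATF6 is cleaved to a transcription factor, and both products raise chaperone and ERAD genes, while PERK slows translation and favours Atf4, which drives amino acid synthesis genes and the death-linked factor Ddit3. Atf4 can also be raised without ER stress, by amino acid shortage among other causes.

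The promoters of the members are shown first because they separate genes with an exact match to a known ER stress element near the start from those without one. Variant or more distant sites were not searched, so a gene without a match may still hold such an element. The ER stress element (ERSE, read as CCAAT, any 9 bases and CCACG on either strand) was found within the 250 bases before the start in 9 of the 28 members that matched the RefSeq promoter table (GRCm38.p6), namely Calr, Canx, Creld2, Derl3, Dnajc3, Hsp90b1, Hspa5, Pdia6 and Syvn1. It was found in 0.113% of all 32851 promoters of that table. Hsp90b1 held it on both strands. Below, capitals mark the whole element, read on the strand of the gene, with the copy on the opposite strand in Calr and Creld2.
Hspa5, chr2:34772020-34772049 (+): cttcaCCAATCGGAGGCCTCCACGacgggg
Dnajc3, chr14:118937822-118937851 (+): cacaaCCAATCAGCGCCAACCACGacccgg
Pdia6, chr12:17266486-17266515 (+): agagaCCAATGAAAGGCGGCCACGgcgtgg
Calr, chr8:84847069-84847098 (-): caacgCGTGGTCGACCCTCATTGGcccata
Creld2, chr15:88819515-88819544 (+): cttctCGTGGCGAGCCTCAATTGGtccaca

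Other motifs were searched in the same windows, also on both strands. The shorter ERSE-II (ATTGG, any base, CCACG) was found only in Herpud1 among the members and in 0.0304% of promoters, and the core of the unfolded protein response element (TGACGTG) only in Hspa5 and in 1.65% of promoters. The C/EBP-ATF response element (CARE, TGATG, any base, AA), which Atf4 can bind, was found in Asns, Chac1 and Herpud1 and in 3.45% of promoters. Herpud1 is shown because it was the member holding both an ER stress element and a CARE, and Asns because its level set the stromal cells apart below. None of these 4 letter patterns was found in the windows of Dnajb9, Sec61b, P4hb or Pdia4, and Atf6, Derl1, Hyou1 and Manf had no entry.
Herpud1 ERSE-II, chr8:94386368-94386397 (+): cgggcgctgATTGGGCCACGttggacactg
Herpud1 CARE, chr8:94386306-94386335 (+): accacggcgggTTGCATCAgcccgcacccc
Asns CARE, chr6:7693214-7693243 (-): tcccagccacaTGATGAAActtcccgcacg

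The libraries held 1504 (tdT1), 454 (tdT2), 5488 (WT) and 3391 (TNF-Tg) cells with 2357031 to 68773605 unique molecular identifiers (UMIs) each, and any pair of libraries shared 0 to 5 cell barcodes. Cells were put into classes by their UMIs of marker genes. The classes that the report turns on held 696, 88, 1345 and 506 lymphatic muscle cell (LMC)-like cells, and 250, 124, 661 and 497 vascular smooth muscle cell (VSMC)-like cells, in tdT1, tdT2, WT and TNF-Tg. These names follow the marker genes of the study's own clusters. The contractile genes that define smooth muscle (Acta2, Myh11, Tagln, Cnn1, Des and Myl9) summed to 18 to 46.9 UMIs per 1000000 (CPM) in LMC-like and 9.79 to 75.5 CPM in VSMC-like cells, with 1 to 4 of the 6 at 0 in each library. The study reported that Cald1, Tpm1 and Pdgfrb were enriched in its muscle clusters, and could not fully exclude myofibroblasts from nearby tissue. Both classes are called stromal here. Resident macrophage-like cells, gated on the sum of 10 markers that include Lyve1, Cd163 and Folr2, numbered 1590 in WT and 319 in TNF-Tg, and 24 and 53 in the tdT libraries. The tdT1 library stood apart: it was sorted through a smaller nozzle and run on another sequencer, 516 of its cells had more than 10% mitochondrial UMIs, and its immediate-early genes summed to 21523 CPM in LMC-like cells against 4468 to 6260.4 CPM in the other libraries.

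A level below is a CPM value computed from the pooled UMIs of a cell class in 1 library. A member was called higher or lower in TNF-Tg than in WT where the levels lay at least 1.5-fold apart with a 95% interval of the ratio that excluded 1, given at least 20 UMIs over both libraries. The members did not move as 1 block. In LMC-like cells 30 of the 32 reached 20 UMIs, 4 were called higher (Calr, P4hb, Sec61b and Asns) against a background of 11.1% of 11931 genes, and 2 were called lower (Dnajb9 and Herpud1) against 12.3%. In VSMC-like cells 2 of 29 were higher (Sec61b and Asns; background 10.5%) and 8 were lower (background 24.3%), a share close to that of all genes. In resident macrophage-like cells 8 of 28 were higher, of which 7 were chaperones, against 14.3% of 11324 genes, and Herpud1 alone was lower, against 11.6%. From WT to TNF-Tg, macrophage markers in these resident macrophage-like cells went from 20049 to 12413 CPM over 9 genes and red blood cell markers from 609 to 19.3 CPM over 4 genes, none of them at 0, and the immediate-early genes from 9875 to 6869.9 CPM. The part of these in the result was not tested.

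**Figure D1:**
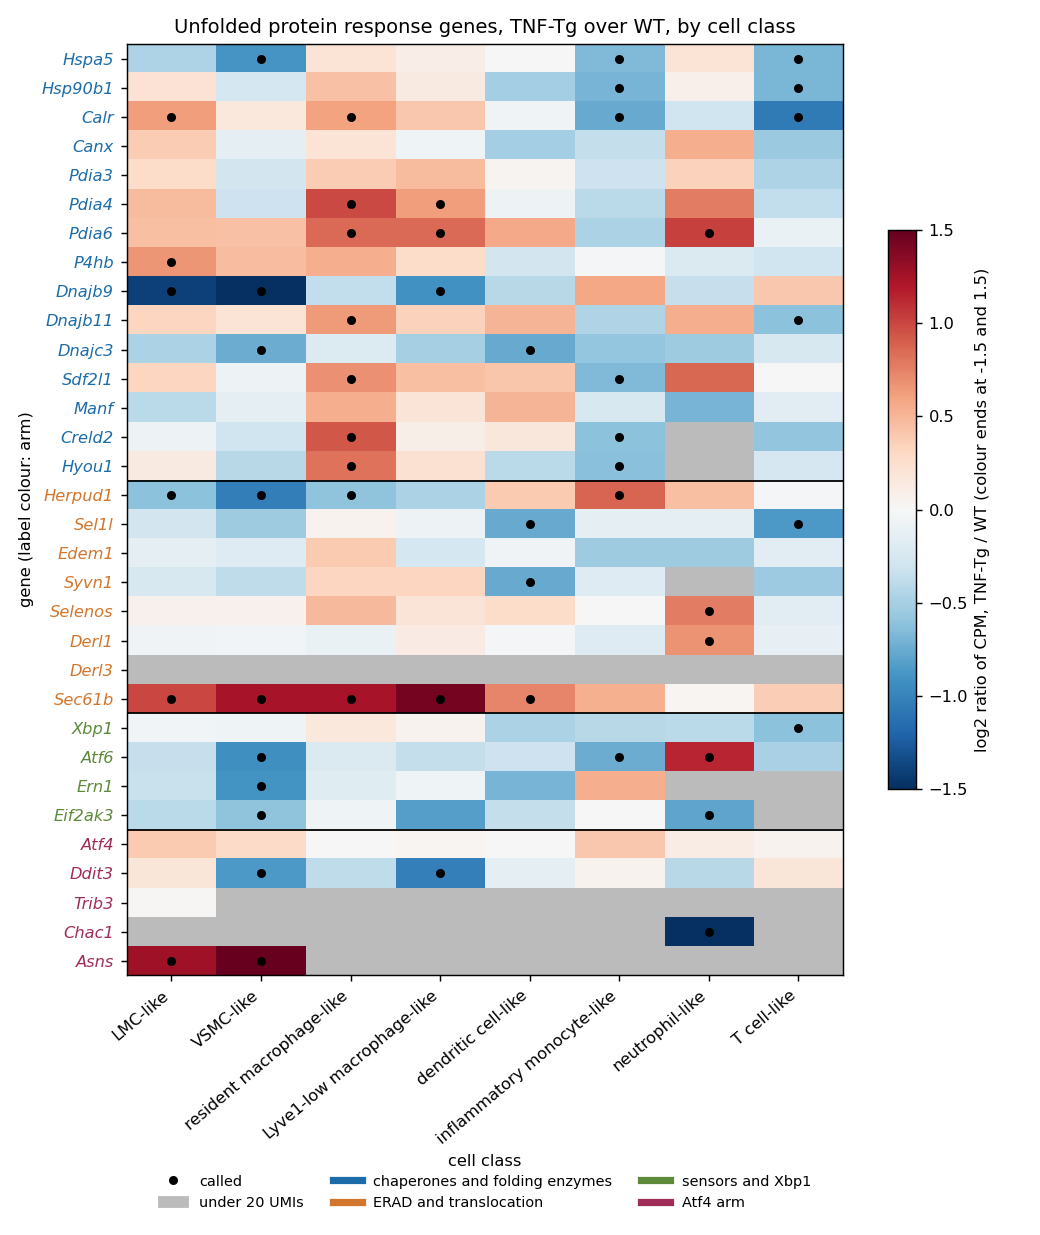
Log2 ratio of CPM, TNF-Tg over WT, for each of the 32 genes (rows, label colour by arm) in 8 cell classes (columns), with dots on called genes and grey where under 20 UMIs were counted. Sec61b is called in 5 of the 8 columns, Dnajb9 is darkest blue in the LMC-like (-1.40) and VSMC-like (-1.65) columns, and the chaperone block is mostly red in resident macrophage-like cells and mostly blue in inflammatory monocyte-like cells.

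The ratios of the chaperones and folding enzymes differed between classes. Their median log2 ratio was 0.28 in LMC-like cells, where the median of all genes was -0.04 and 10 of the 15 lay above 0. It was -0.26 in VSMC-like cells, where the median of all genes was -0.19. It reached 0.55 in resident macrophage-like cells, where all genes had a median of 0.02 and 13 of the 15 lay above 0. In inflammatory monocyte-like cells (102 cells in WT, 796 in TNF-Tg) the median was -0.47 with all genes at -0.01, and 14 of the 15 lay below 0. The summed level of the 15 genes went from 4776 CPM in WT to 5326 CPM in TNF-Tg LMC-like cells, and from 5278 to 4557 CPM in VSMC-like cells. In both stromal classes tdT1 and tdT2 lay below WT in this sum, by more than the step from WT to TNF-Tg. It went from 3951 to 5274 CPM in resident macrophage-like cells and from 3492 to 2445 CPM in inflammatory monocyte-like cells.

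Hspa5 encodes BiP, the abundant lumenal Hsp70 that both folds proteins and holds the sensors inactive. In LMC-like cells its level was 697 CPM in tdT1, 531 CPM in tdT2, 905 CPM in WT against 658 CPM in TNF-Tg. The TNF-Tg level thus lay between those of the 2 reporter libraries, WT was the highest of the 4, and Hspa5 was not called. In VSMC-like cells the levels were 719.7, 582, 923 and 500.1 CPM in the same order, with TNF-Tg below all the others and a log2 ratio to WT of -0.88 (95% interval -0.95 to -0.82). Resident macrophage-like cells of WT held 730 CPM and those of TNF-Tg 840.1 CPM, a difference too small to be called. Hsp90b1 (GRP94), the lumenal Hsp90, measured 513, 571, 885 and 1034 CPM in LMC-like cells, with TNF-Tg the highest, and was not called there.

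Dnajb9 and Dnajc3 encode J-domain partners of BiP, of which Dnajb9 (ERdj4) is a target of spliced Xbp1 that feeds back on IRE1. Dnajb9 was the member with the lowest ratio in both stromal classes. In LMC-like cells it measured 70.7 CPM in tdT1, 44.1 CPM in tdT2, 96.8 CPM in WT against 36.8 CPM in TNF-Tg, a log2 ratio of -1.40 (-1.59 to -1.21) between the last pair. In VSMC-like cells the levels were 62.2, 50.8, 109 and 34.6 CPM, a log2 ratio of -1.65 (-1.89 to -1.42). WT was the highest of the 4 libraries in both classes. TNF-Tg was the lowest in both, and also among macrophage-like cells, where the levels were 163, 55.6, 63.0 and 42.9 CPM. The nearest library, tdT2, rested on 22 UMIs of Dnajb9 in LMC-like cells. With every cell thinned to 3000 UMIs, 24% of WT and 8.82% of TNF-Tg LMC-like cells held a UMI of Dnajb9. Dnajc3 (P58IPK), which also restrains PERK, was called lower in VSMC-like cells (244, 265, 329.6 and 196 CPM, log2 ratio -0.75), and Dnajb11 (ERdj3), a partner of BiP that binds unfolded clients, was called higher in resident macrophage-like cells (74.1 CPM in WT against 116 CPM in TNF-Tg, log2 ratio 0.64).

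Calr and Canx are the lectin chaperones that hold newly glycosylated proteins. Calr in LMC-like cells measured 404 CPM in tdT1, 304 CPM in tdT2, 517 CPM in WT against 801 CPM in TNF-Tg, a log2 ratio of 0.63 (0.59 to 0.68) with TNF-Tg above all the others. As a ratio, however, the step from tdT2 to WT was wider than that from WT to TNF-Tg. In VSMC-like cells the levels of 402, 305, 596 and 666 CPM put TNF-Tg on top again, but WT lay close and Calr was not called. In resident macrophage-like cells Calr was 454 CPM in WT against 687 CPM in TNF-Tg, a log2 ratio of 0.60. In inflammatory monocyte-like cells the order was turned, with 402 CPM in WT against 238 CPM in TNF-Tg. Canx was not called in any of the 8 classes before transcript length was taken into account, and in LMC-like cells it measured 274, 268, 301 and 391 CPM.

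The protein disulfide isomerases form and reshuffle disulfide bonds, and P4hb also serves as the beta subunit of the prolyl hydroxylase that modifies collagen. P4hb in LMC-like cells measured 305, 274 and 305 CPM in tdT1, tdT2 and WT and 482 CPM in TNF-Tg, a log2 ratio of 0.66 (0.60 to 0.72). The 3 libraries without the transgene thus lay close together and TNF-Tg lay above them. In VSMC-like cells the pattern was the same in order, with 278, 282, 306 and 422 CPM, though the difference fell short of 1.5-fold. Pdia4 and Pdia6 were called in resident macrophage-like cells, Pdia4 with 144 CPM in WT against 285 CPM in TNF-Tg (log2 ratio 0.99, 0.89 to 1.09) and Pdia6 with 190.2 and 343 CPM (0.85, 0.76 to 0.94). Pdia6 measured 147, 186, 285 and 390.2 CPM in LMC-like cells, so that the spread between the libraries without the transgene was wider than the step from WT to TNF-Tg. Pdia3, which works on glycoproteins with Calr and Canx, was not called in any class.

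The remaining chaperone genes encode small or auxiliary lumenal proteins. In resident macrophage-like cells Creld2 (27.0 CPM in WT against 51.4 CPM in TNF-Tg, log2 ratio 0.93), Hyou1, the nucleotide exchange factor of BiP (31.3 and 55.0 CPM, 0.81), and Sdf2l1, a component of ERdj3 complexes (93.2 and 149.7 CPM, 0.68), were called higher. The same 3 genes were called lower in inflammatory monocyte-like cells, with log2 ratios of -0.61 for Creld2, -0.63 for Hyou1 and -0.66 for Sdf2l1. Creld2 and Hyou1 rested there on 38 and 42 UMIs in WT. Manf, a secreted ER stress-inducible factor, was not called in any class, and measured 134, 172, 292 and 220.2 CPM in LMC-like cells.

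**Figure D2:**
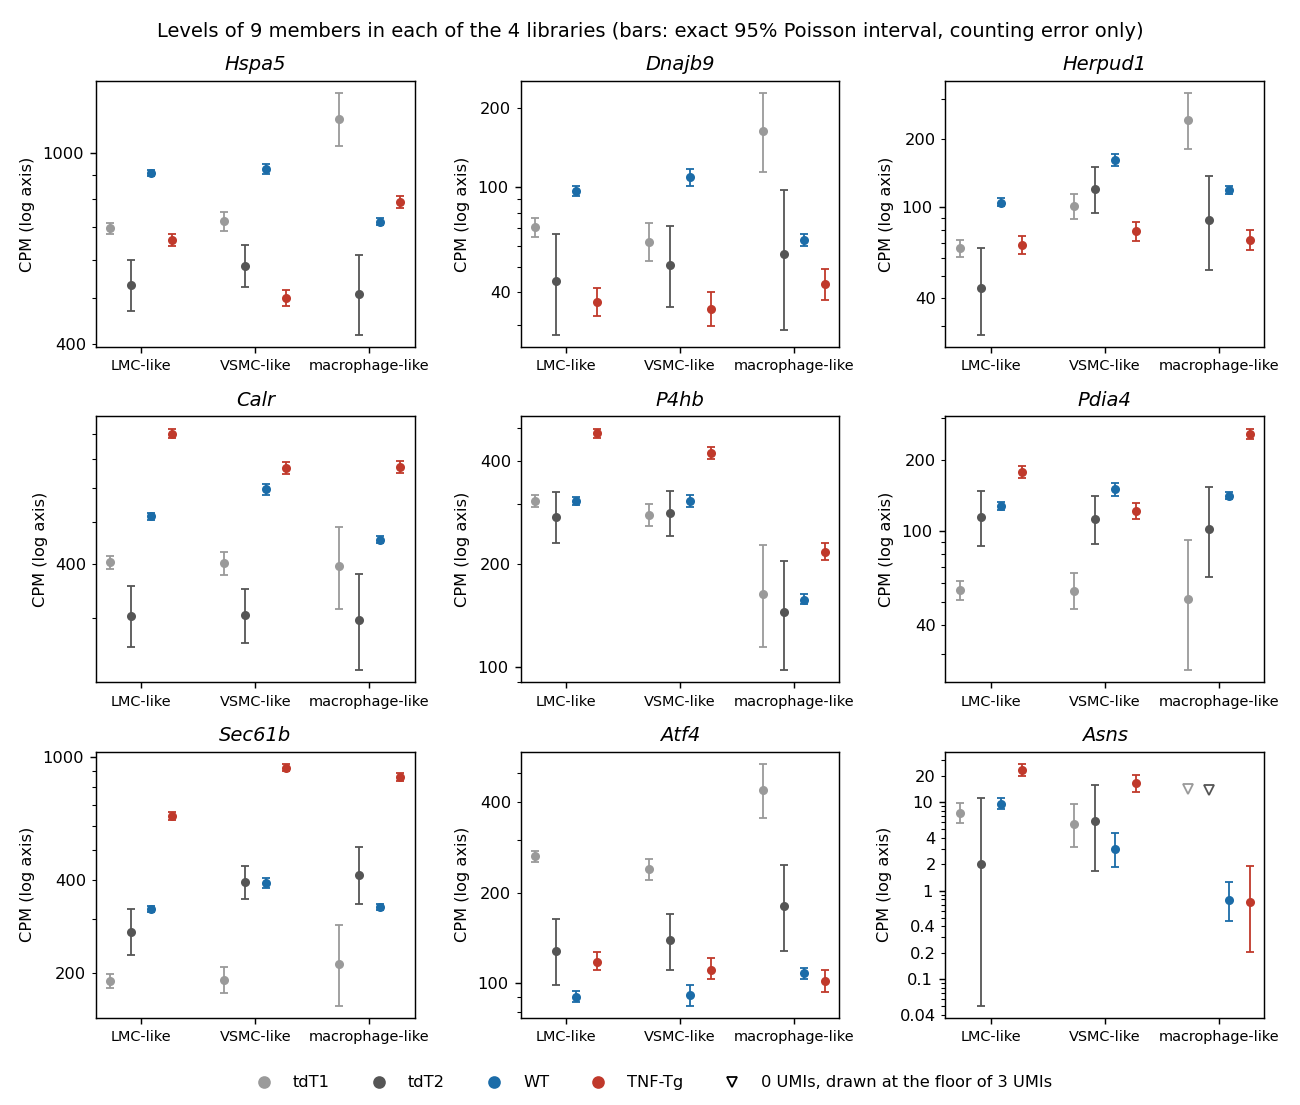
CPM (log axes, each panel with its own range) of 9 of the genes in LMC-like, VSMC-like and macrophage-like cells of the 4 libraries, with points for the summed UMIs of 1 library and bars for exact 95% Poisson intervals. Dnajb9 in TNF-Tg (red) lies lowest in all 3 classes, Sec61b and P4hb in TNF-Tg lie highest in all 3, Atf4 is highest in tdT1, and Asns lies under 1 CPM or at 0 UMIs in macrophage-like cells.

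ERAD carries misfolded proteins back to the cytosol for destruction, and Herpud1 organises its membrane complex and is itself strongly inducible. Herpud1 in VSMC-like cells measured 101 CPM in tdT1, 120.1 CPM in tdT2, 162 CPM in WT against 78.7 CPM in TNF-Tg, a log2 ratio of -1.04 (-1.20 to -0.87) with TNF-Tg below the others. In LMC-like cells, with 66.3, 44.1, 105 and 68.2 CPM, it was called lower against WT at -0.62, but the TNF-Tg level lay above both reporter libraries and WT was the library set apart. Resident macrophage-like cells gave 126 CPM in WT against 82.8 CPM in TNF-Tg (log2 ratio -0.60). Inflammatory monocyte-like cells gave the opposite order, 46.8 and 85.4 CPM, on 55 UMIs in WT (log2 ratio 0.87, 0.47 to 1.29). The ligase Syvn1 and its partner Sel1l, the mannosidase-like Edem1, Selenos and Derl1 were not called in any of the LMC-like, VSMC-like or resident macrophage-like cells. Derl3 had 0 to 9 UMIs in LMC-like cells of each library and did not reach 20 UMIs in any class.

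Sec61b encodes the beta subunit of the channel through which new proteins enter the ER. It measured 189, 272, 322 and 646 CPM in LMC-like cells, a log2 ratio of 1.00 (0.95 to 1.06) of TNF-Tg over WT. In VSMC-like cells it measured 190.4, 394, 391 and 926 CPM, a log2 ratio of 1.24, and in resident macrophage-like cells 316 CPM in WT against 748 CPM in TNF-Tg, again 1.24. It was called higher in 5 of the 8 classes. Its longest transcript, 723 bases, is the shortest of the 32, and short transcripts as a group were higher in TNF-Tg: among genes under 1000 bases 27.3% were called higher in LMC-like, 36.1% in VSMC-like and 29.4% in resident macrophage-like cells.

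Transcript length moved with the ratios of all genes, and its part in the results above was not tested. In LMC-like cells the median log2 ratio was 0.33 for genes whose longest annotated transcript is under 1000 bases, 0.24 from 1000 to 2000, 0.03 from 2000 to 4000 and -0.24 at 4000 or more. In VSMC-like cells the same medians were 0.42, 0.25, -0.12 and -0.49. When the median of genes of like length was taken off, a step added after the data were seen, Sec61b stood at 0.68 in LMC-like, 0.82 in VSMC-like and 0.94 in resident macrophage-like cells, and was called in each. In all, 5 members were then called higher (background 10.3%) and 2 lower (9.81%) in LMC-like cells, 2 higher (12.7%) and 4 lower (12.8%) in VSMC-like cells, and 5 higher (11.8%) and 2 lower (11.9%) in resident macrophage-like cells. Dnajb9 stood at -1.43 and -1.53 and Herpud1 at -0.86 and -1.29 in LMC-like and VSMC-like cells. The long transcripts of Dnajc3, Atf6, Ern1 and Eif2ak3 were no longer called in VSMC-like cells, at -0.26, -0.43, -0.40 and -0.11. Calls were also gained. Canx was then called higher in LMC-like (0.62) and neutrophil-like cells (0.67), and Ddit3 lower in resident macrophage-like (-0.69) and neutrophil-like cells (-0.81). The chaperone medians became 0.25 in LMC-like, -0.14 in VSMC-like, 0.48 in resident macrophage-like and -0.45 in inflammatory monocyte-like cells.

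**Figure D3:**
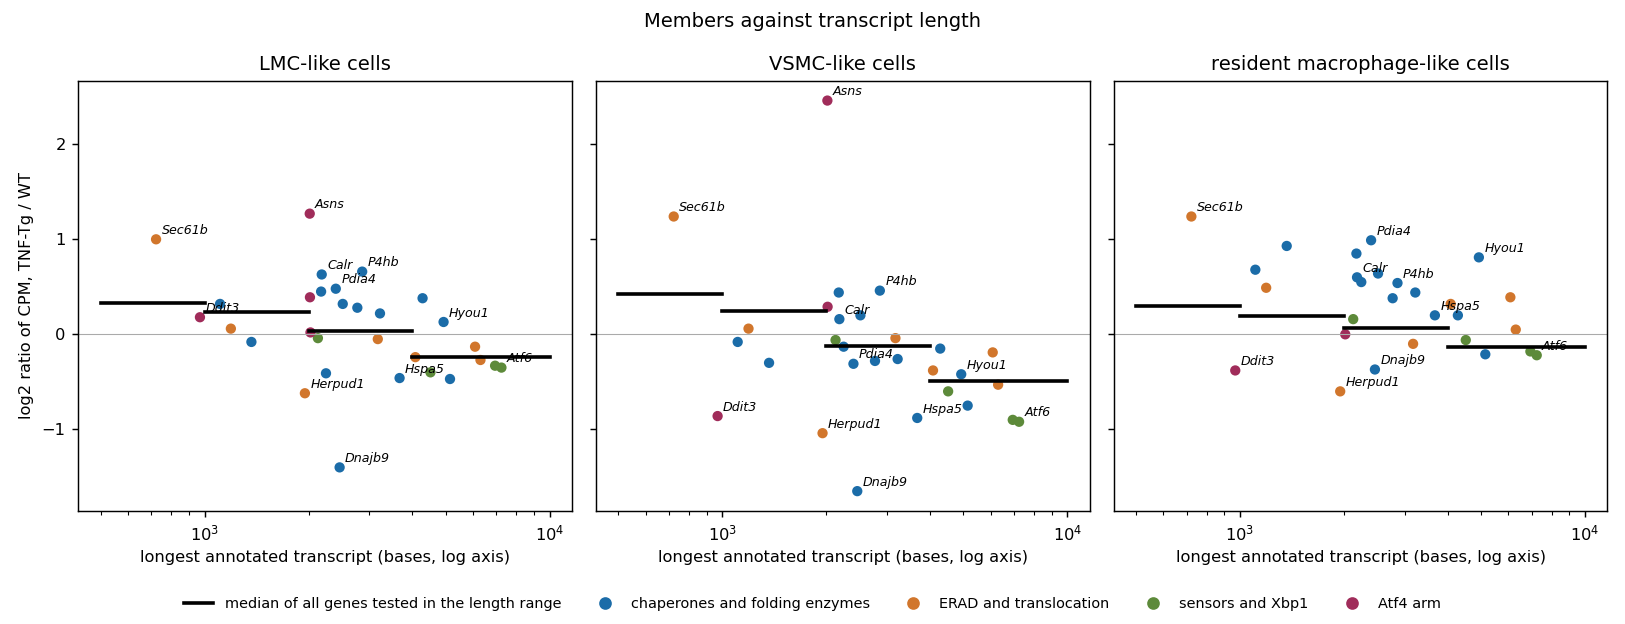
Log2 ratio of CPM, TNF-Tg over WT, of each gene (points, coloured by arm) against its longest annotated transcript in bases (log axis) in 3 cell classes, with bars for the median of all genes tested in 4 length ranges. The bars step down from left to right in each panel, Dnajb9 and Herpud1 lie under them in the LMC-like and VSMC-like panels, and Sec61b lies over the leftmost bar in all 3.

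The sensors lie at the top of the pathway. In VSMC-like cells Atf6 measured 29.7, 33.9, 31.5 and 16.6 CPM in tdT1, tdT2, WT and TNF-Tg, a log2 ratio of -0.92 (-1.29 to -0.56). Ern1 (9.89, 16.9, 10.2 and 5.48 CPM, log2 ratio -0.90) and Eif2ak3 (26.8, 13.9, 22.7 and 14.9 CPM, log2 ratio -0.60) were called lower as well, although Eif2ak3 in TNF-Tg lay above tdT2. These 3 and Dnajc3 lost their calls in VSMC-like cells against genes of like length. In LMC-like cells Atf6 was 33.3, 36.0, 30.1 and 23.6 CPM, and none of the sensors was called. Xbp1, whose total level was measured here and not its splicing, was 137, 158, 187 and 182 CPM in LMC-like and 195, 202, 235 and 226 CPM in VSMC-like cells, with TNF-Tg and WT close together in both.

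The Atf4 arm did not move as 1 group either. Atf4 itself measured 264 CPM in tdT1, 128 CPM in tdT2, 90.2 CPM in WT against 118 CPM in TNF-Tg LMC-like cells, so that the spread between the 2 reporter libraries was wider than the step from WT to TNF-Tg. The level was highest in tdT1, the library with the highest immediate-early genes, in LMC-like, VSMC-like and macrophage-like cells alike. Asns, which makes asparagine and is a standard target of Atf4, was called higher in both stromal classes. It measured 7.62, 2.00, 9.66 and 23.3 CPM in LMC-like cells (62, 1, 209 and 163 UMIs), a log2 ratio of 1.27 (0.97 to 1.57) of TNF-Tg over WT. In VSMC-like cells it measured 5.77, 6.16, 2.98 and 16.5 CPM (14, 4, 21 and 87 UMIs), a log2 ratio of 2.46 (1.76 to 3.23), with TNF-Tg above the others in both classes. After thinning to 3000 UMIs, 3.20% of WT and 6.61% of TNF-Tg LMC-like cells held a UMI of Asns, against 0.131% of WT and 0 of 298 TNF-Tg resident macrophage-like cells, where an exact interval reached 1.23%. The median unthinned depth of the classes differed, which the thinning sets equal.

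Ddit3 (CHOP), the factor that links prolonged ER stress to cell death, moved the other way from Asns in VSMC-like cells, with 28.9, 23.1, 23.4 and 12.9 CPM and a log2 ratio of -0.86 (-1.29 to -0.45). It was not called in LMC-like cells, at 29, 16, 21.8 and 24.7 CPM. A second gene ID with the symbol Ddit3 was listed in tdT2, WT and TNF-Tg, with 0 UMIs in each, and was not listed in tdT1. Trib3, a pseudokinase induced by Atf4 and Ddit3, reached 20 UMIs in LMC-like cells alone, with 4.30, 6.01, 2.82 and 2.86 CPM. Chac1, a glutathione-degrading target of Atf4, had at most 3 UMIs in LMC-like cells of a library, and among neutrophil-like cells it measured 15.3 CPM in WT on 21 UMIs and 4.59 CPM in TNF-Tg on 4 UMIs, which was called lower (log2 ratio -1.74). Of the 8 ERSE-bearing members that were tested, 1 was higher and 0 lower in LMC-like cells, 0 higher and 2 lower in VSMC-like, 3 higher and 0 lower in resident macrophage-like, and 0 higher and 4 lower in inflammatory monocyte-like cells. The shares of all genes called higher and lower were 11.1% and 12.3%, 10.5% and 24.3%, 14.3% and 11.6%, and 6.66% and 8.51% in the same order.

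In inflammatory monocyte-like cells 7 of 28 members were lower, against 8.51% of 9830 genes, and 1 was higher, against 6.66%. The 7 were Hspa5 (534 CPM in WT to 337 CPM in TNF-Tg, log2 ratio -0.66), Hsp90b1 (677 to 418 CPM, -0.70), Calr, Sdf2l1, Creld2, Hyou1 and the sensor gene Atf6 (83.3 to 49.8 CPM, -0.74). Neutrophil markers in these cells summed to 252 CPM in WT against 734 CPM in TNF-Tg over 8 genes, none of them at 0, and resident macrophage markers to 1139.6 against 750 CPM over 10 genes, none at 0. Red blood cell markers went from 9.36 CPM, with Hba-a1 at 0, to 527 CPM over 4 genes. The part of these in the result was not tested. Lyve1-low macrophage-like cells (157 and 98 cells) had 3 of 28 members higher (background 14.8%) and 2 lower (13.3%), both shares below those of all genes. Pdia6 went from 267 to 481 CPM and Sec61b from 435 to 1178 CPM, and Dnajb9 (41.8 to 22.2 CPM) and Ddit3 (22.6 to 11.1 CPM) were lower. Pdia6, Pdia4 and Sec61b were called higher in both macrophage gates, which come from the same WT and TNF-Tg libraries. Against genes of like transcript length Pdia4 stood at 0.55 in Lyve1-low macrophage-like cells and was not called there.

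In dendritic cell-like cells (365 and 192 cells) 28 members were tested. Sec61b was the 1 member higher (745 to 1237 CPM, background 12.0%). Dnajc3 (146 to 86 CPM), Sel1l (43 to 25.4 CPM) and Syvn1 (14.9 to 8.82 CPM) were lower (background 17.5%). In T cell-like cells (96 and 112 cells) 0 of 26 members were higher (background 2.96%) and 6 were lower (13.4%). Of these 6, Calr went from 319.8 to 154 CPM, a log2 ratio of -1.06, and Hspa5 from 426 to 267 CPM. Ribosomal protein genes took 29.6% of the UMIs of these T cell-like cells in WT against 35.1% in TNF-Tg, and with ribosomal and mitochondrial genes left out of the total 1 member was called. Macrophage markers in the T cell-like cells went from 457 to 27.6 CPM over 9 genes, with Ms4a7, Fcgr1 and C3ar1 at 0 in TNF-Tg, and resident macrophage markers from 432 to 68.3 CPM over 10 genes, with Lyve1 and Cd209f at 0 in TNF-Tg. The part of either in the 6 lower levels was not tested. Neutrophil-like cells (348 and 228 cells) had 4 of 25 members higher (background 13.6%) and 2 lower (11.1%), each on 20 to 75 UMIs per library except Chac1 with 21 and 4. Among them were Pdia6 (21.9 to 44.7 CPM), Atf6 (14.6 to 32.1 CPM) and Eif2ak3 (41.6 to 24.1 CPM).

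The reporter libraries also lack the transgene, so their levels can be set beside TNF-Tg. They differ from it in sort, in sex and in the reporter as well. A TNF-Tg level above or below all 3 other libraries also lies on that side of WT, so the counts below repeat the ratio to WT at least in part. TNF-Tg lay above all 3 other libraries in LMC-like cells for 10 of the 15 chaperones and below for 1, where 26.5% of genes lay above and 28.0% below. In VSMC-like cells 4 lay above and 4 below, against 21.8% and 41.6% of genes. In both stromal classes the chaperones counted above are all those with TNF-Tg above WT. The reporter libraries removed none of them, so these counts above add nothing to the ratio to WT. In macrophage-like cells, where the tdT libraries had 32 and 58 cells, 11 lay above and 2 below, against 25.9% and 22.5%. Between tdT1 and tdT2, which share a genotype, the median SD of the log2 level was 0.28 for chaperones, 0.21 for ERAD and translocation, 0.15 for the sensors with Xbp1 and 0.58 for the Atf4 arm (n = 2 libraries, over LMC-like and VSMC-like cells). The median log2 ratio of the chaperones between these libraries, tdT2 over tdT1, was 0.01 in LMC-like and 0.18 in VSMC-like cells, beside 0.28 and -0.26 for TNF-Tg over WT. By the same call 1 of 30 members was higher and 2 lower in tdT2 than in tdT1 LMC-like cells. Of all 10626 genes tested there, 984 were higher and 923 lower. In VSMC-like cells 6 of 28 members were higher and 1 lower, beside 1149 and 924 of 9161 genes. Of the 15 chaperones 4 were called higher there and 0 lower. Calls thus also arose between libraries of the same genotype. In LMC-like cells the reporter libraries lay closer together than WT and TNF-Tg for Dnajb9 and Sec61b. For Asns they lay further apart (7.62 and 2.00 CPM, on 62 and 1 UMIs) than WT and TNF-Tg did. In VSMC-like cells Sec61b measured 190.4 CPM in tdT1 and 394 CPM in tdT2, beside a log2 ratio of 1.24 of TNF-Tg over WT.

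Differences between cell classes could be tested, because each library held the classes side by side. In tdT1 and tdT2, however, the macrophage-like cells came out of a sort for tdTomato and were few. Resident macrophage-like cells there numbered 24 and 53, with medians of 3503.5 and 3508 UMIs, against 12161.5 in WT. The part of this in the contrast was not tested. UMIs summed per library and class were compared in 1 fit over the 4 libraries with library as a block (edgeR's quasi-likelihood test, p-values adjusted by Benjamini-Hochberg over 11757 genes). Of 30 members tested, 5 were higher in stromal than in macrophage-like cells (background 31.2%) and 5 were lower (background 30.1%), so fewer members than genes at large set these classes apart. Asns was the member with the largest difference, a log2 difference of 3.57 (SE 0.43, adjusted p = 1.9e-06), with means of 10.7 CPM in LMC-like, 7.84 CPM in VSMC-like and 0.383 CPM in macrophage-like cells. P4hb, the collagen hydroxylase subunit, was 1.06 higher (SE 0.14, adjusted p = 4.6e-06), with means of 342, 322 and 170.4 CPM. Manf was 0.78 higher (adjusted p = 0.0012), Selenos 0.36 higher (adjusted p = 0.031) and Trib3 1.80 higher (adjusted p = 0.042). The mean levels of Trib3 did not follow that fitted difference, at 4 CPM in LMC-like, 1.08 CPM in VSMC-like and 2.43 CPM in macrophage-like cells. The macrophage mean rested on 2 UMIs in tdT1 (9.31 CPM) and 9 in WT (0.419 CPM), with 0 in tdT2 and TNF-Tg, and Trib3 was higher in stromal cells in 3 of 4 libraries.

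In the other direction, Atf6 was the member most clearly lower in stromal cells, by a log2 difference of -1.44 (SE 0.13, adjusted p = 4.9e-08), with means of 30.8 CPM in LMC-like, 27.9 CPM in VSMC-like and 84.1 CPM in macrophage-like cells. The IRE1 gene Ern1 was lower too (-0.83, adjusted p = 0.0011), so both sensors were at a higher level in the phagocytes, while the PERK gene Eif2ak3 was not called (0.24, SE 0.18). Sdf2l1 (-0.94, adjusted p = 8.3e-05), Edem1 (-0.66, adjusted p = 0.00095) and Canx (-0.42, adjusted p = 0.012) completed the list. Hspa5 differed by -0.09 (SE 0.16) and did not pass. With DESeq2 size factors in the same test the split was 10 higher and 5 lower in place of 5 and 5, the log2 differences of all the members named shifting upwards, with P4hb at 1.16 and Atf6 at -1.32. Without the library block P4hb, Edem1, Atf6 and Asns kept their calls.

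**Figure D4:**
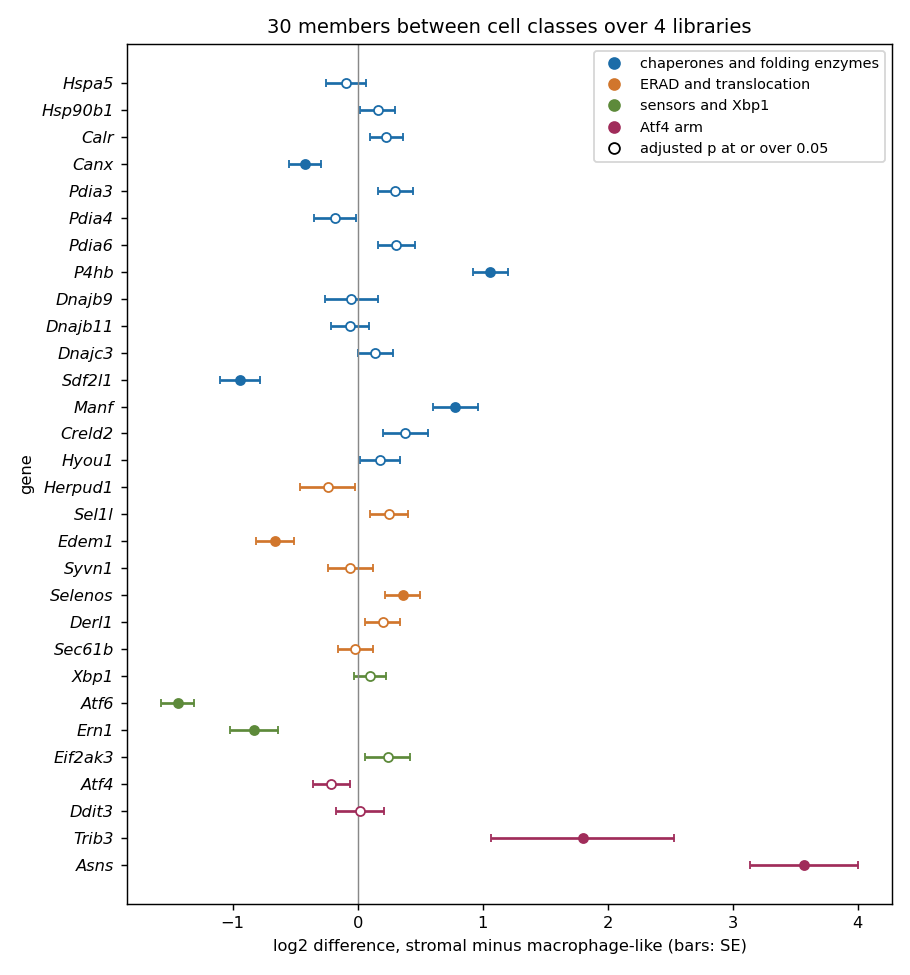
Log2 difference between stromal (mean of LMC-like and VSMC-like) and macrophage-like cells of the 30 genes tested, over 4 libraries, with bars for 1 SE and filled points where the adjusted p of edgeR's quasi-likelihood test is under 0.05. Most points sit close to 0, with Asns (3.57), Trib3 (1.80) and P4hb (1.06) on the stromal side and Atf6 (-1.44) on the macrophage side.

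LMC-like and VSMC-like cells were much closer to each other. Only Trib3 passed, higher in LMC-like cells by a log2 difference of 1.90 (SE 0.61, adjusted p = 0.047; background 7.22% higher and 7.14% lower), higher in 4 of 4 libraries on means of 4 and 1.08 CPM. It rested on at most 8 UMIs per library in VSMC-like cells, with 0 in TNF-Tg, where 3 UMIs would be 0.567 CPM. The call was lost when any 1 of the 4 libraries was left out, the adjusted p then lying between 0.06 and 0.16. Sdf2l1 (0.54, adjusted p = 0.051), Herpud1 (-0.68, adjusted p = 0.067) and Xbp1 (-0.41, adjusted p = 0.066) pointed the same way in 4 of 4 libraries without passing.

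Genes of the same pathways outside the 32 were followed on fixed lists. These lists were not set against genes of like transcript length, and the part of length in their counts was not tested. Of 17 genes of the signal peptidase and translocon, 4 were called higher and 0 lower in LMC-like cells, 5 and 1 in VSMC-like and 5 and 0 in resident macrophage-like cells. Of all genes 11.1% were higher and 12.3% lower in LMC-like, 10.5% and 24.3% in VSMC-like and 14.3% and 11.6% in resident macrophage-like cells, and the LMC-like shares are the background of the lists that follow. Sec61g, the partner of Sec61b in the channel, measured 621 CPM in WT against 1351 CPM in TNF-Tg LMC-like cells (log2 ratio 1.12) and Ssr2, of the translocon-associated complex, 92.9 and 191 CPM (1.04). Of 26 further Atf4 targets tested, 10 were higher and 4 lower in LMC-like cells, with a median of 0.41. The amino acid transporter Slc7a5 (2.40 and 8.73 CPM, 1.86) and the serine synthesis enzyme Psph (6.94 and 21.9 CPM, 1.66) were the highest, and Ddit4 (15.6 and 5.15 CPM, -1.60) and Atf3 (60.1 and 33.6 CPM, -0.84), both also known as general stress genes, were the lowest. Of 16 further ERAD genes 0 were called in either direction in LMC-like cells, with Erlec1 at -0.45 and Ufd1 at 0.39 as the ends of the range.

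Of 20 further ER folding enzymes 2 were higher and 1 lower in LMC-like cells. The peptidyl-prolyl isomerase Fkbp11 measured 32.5 CPM in WT against 78.1 CPM in TNF-Tg (log2 ratio 1.26), and the oxidase Ero1lb 5.46 and 2.57 CPM (-1.08). Of 15 collagen folding genes 3 were higher and 1 lower, with the procollagen isomerase Fkbp10 at 0.72 (43.3 and 71.4 CPM), P4ha3 at 2.21 on 25 UMIs in both libraries together, and the ER-bound factor Creb3l1 at -0.83 (166 and 93.8 CPM). Of 12 cytosolic heat shock genes 1 was higher (Hspe1, 0.67) and 1 lower (Hsph1, -0.96), with a median of -0.14. The 12 immediate-early genes had 1 higher and 3 lower and a median of -0.29. Their summed level was 5604 CPM in WT against 4468 CPM in TNF-Tg LMC-like cells, where Dnajb9 and Herpud1 were lower as well. In tdT1 and tdT2 the sum was 21523 and 6260.4 CPM, above WT. Dnajb9 (70.7 and 44.1 CPM) and Herpud1 (66.3 and 44.1 CPM) lay below their WT levels in these 2 libraries. The part of the immediate-early genes in the Dnajb9 and Herpud1 results was not tested. Macrophage markers in LMC-like cells summed to 90.3 CPM in WT against 46.8 CPM in TNF-Tg over 9 genes, with Adgre1 at 0 in TNF-Tg, and plasma cell markers to 2.54 and 2.29 CPM over 7 genes, with Jchain at 0 in both. Red blood cell markers in LMC-like cells summed to 10.3 CPM in WT against 620 CPM in TNF-Tg over 4 genes, none at 0, with 103 CPM in tdT1 and 30 CPM in tdT2. In VSMC-like cells they summed to 9.51 and 11 CPM in WT and TNF-Tg. The part of these markers in the results was not tested.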

How the data were processed

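The authors deposited filtered 10x matrices that hold UMI counts of genes by cells, made with Cell Ranger (3.1.0 for tdT1 and 6.0.1 for the other libraries by the file headers, against 3.1 and 3.1.0 in the submitters' processing notes) on mm10, the gene annotation being not given in the sources used here. The authors applied no normalization to these counts. Libraries were sequenced to different depths (median 4932.5 to 12660 UMIs per cell), and a 3' assay samples transcript ends, so levels are compared between libraries and cell classes and not between genes.

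Cells were gated on marker UMIs per 10000: stromal cells had at least 50 stromal and at most 5 leukocyte UMIs, and a log2 ratio of LMC to VSMC markers of at least 1 (LMC-like) or at most 0 (VSMC-like). Macrophage-like cells had at least 40 macrophage UMIs, resident ones at least 60 resident marker UMIs. Counts were summed by class and library and scaled to CPM. Levels carry exact Poisson intervals and WT to TNF-Tg ratios exact conditional binomial intervals, at 95%. A count of 0 is shown at a fixed floor of 3 UMIs, which is not the upper limit of these intervals. Classes needed 50 cells in both libraries. Class contrasts used edgeR 4.0.16 (quasi-likelihood, TMM, filterByExpr, library as block, adjusted p under 0.05, sums of at least 20 cells) in R 4.3.3, tested on simulated data. Alternatives used DESeq2 1.42.0, Seurat 5.3.0 clusters and Scrublet in scanpy 1.11.5, which marked 138 of 5488 WT and 72 of 3391 TNF-Tg cells as doublets, and 4 of 1504 and 1 of 454 tdT cells; these were kept except where said. The cell-by-cell test of the study was not used, since cells of 1 library are not replicates, and where nothing says that tdT1 and tdT2 differ in more than mice and processing, their spread may be technical. Pairing by library is by construction, as the classes compared come from the same suspension. Promoter letters and positions are RefSeq's (GRCm38.p6). The 32 members, the related gene lists, the gates and the tests were chosen with earlier results of these data known. In each related list the 2 highest and 2 lowest log2 ratios in LMC-like cells were eligible to be named.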

Additional observations from a re-analysis of the deposited data

Results flagged for a closer look

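Several members were called in opposite directions in different cell classes of the same pair of libraries. The difference between classes was not tested, as each rests on 1 WT and 1 TNF-Tg library.

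Calr had a log2 ratio of TNF-Tg over WT of 0.63 in LMC-like and 0.60 in resident macrophage-like cells, and of -0.76 in inflammatory monocyte-like and -1.06 in T cell-like cells. Dnajb11 stood at 0.64 in resident macrophage-like and -0.62 in T cell-like cells. Sdf2l1 (0.68 and -0.66), Creld2 (0.93 and -0.61) and Hyou1 (0.81 and -0.63) were higher in resident macrophage-like and lower in inflammatory monocyte-like cells. All 5 of these genes encode ER chaperones or their helpers.

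Herpud1 of the ERAD complex went the other way. It was lower in LMC-like (-0.62), VSMC-like (-1.04) and resident macrophage-like cells (-0.60) and higher in inflammatory monocyte-like cells (0.87), where WT had 55 UMIs. The sensor gene Atf6 was lower in VSMC-like (-0.92) and inflammatory monocyte-like cells (-0.74) and higher in neutrophil-like cells (1.14), the last on 20 UMIs in WT and 28 in TNF-Tg.

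Measured against genes of like transcript length, Creld2 and Herpud1 were still called in both directions, as was Calr, in LMC-like against inflammatory monocyte-like and T cell-like cells. Calr was no longer called in resident macrophage-like cells (0.52), nor was Dnajb11 in either class (0.57 and -0.45), Sdf2l1 in resident macrophage-like cells (0.49), Hyou1 in inflammatory monocyte-like cells (-0.45) or Atf6 in VSMC-like and inflammatory monocyte-like cells (-0.43 and -0.56).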

How the results depend on the processing

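No called member changed direction under any alternative in which it was still tested: 548 single-gene results kept their call and 128 lost it. Members not tested under an alternative were left out of both counts. The 2-fold threshold, the minimum of 100 UMIs and a run with no minimum count leave each ratio as it is, so no direction could change there. With no minimum count, or with the minimum of 100 UMIs, no call of a member still tested could be lost either. The 548 results that kept their call include those of both these runs. A threshold of 2-fold left 3 calls in LMC-like, 4 in VSMC-like, 1 in resident and 2 in Lyve1-low macrophage-like, 3 in neutrophil-like, 1 in T cell-like and 0 in dendritic and inflammatory monocyte-like cells. Thinning to 3000 UMIs gave 10 calls in LMC-like, 3 in neutrophil-like and 1 in T cell-like cells. Mean CPM of single cells gave 4 in resident macrophage-like and 10 in neutrophil-like cells, and a minimum of 100 UMIs 2 in neutrophil-like cells. Seurat clusters in place of gates gave 8 in dendritic and 2 in T cell-like cells, and no cluster was named Lyve1-low macrophage-like. The cluster classes did not hold the same cells as the gates. A cluster of 301 WT and 22 TNF-Tg cells counted as dendritic was most often gated as other leukocyte. A cluster of 7 WT and 199 TNF-Tg cells counted as inflammatory monocyte-like was most often gated as patrolling monocyte-like. Clusters of 1166 WT and 266 TNF-Tg, of 479 and 335, and of 72 and 15 cells were all most often gated as resident macrophage-like. The resident class thus pooled more than 1 cluster, and the clusters differed in their balance of WT and TNF-Tg cells. The part of this in the results of that class was not tested. Centring on all genes gave 7 in dendritic and 1 in T cell-like cells, and leaving out ribosomal and mitochondrial genes 1 in T cell-like cells. Centring on genes of like length, chosen after seeing the data, gave 6 in VSMC-like, 1 in dendritic and 1 in T cell-like cells.

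Of the group medians, that of ERAD and translocation turned to 0.08 in VSMC-like cells with length centring and to -0.04 in resident macrophage-like cells with clusters, and was 0.63 in neutrophil-like cells after thinning. That of the Atf4 arm turned to -0.64 in T cell-like cells after thinning, on 1 gene. The chaperone median was -0.35 in dendritic cell-like cells with clusters. The median of the sensors with Xbp1 stayed below 0 under the alternatives run except length centring in resident macrophage-like cells, where it was 0.01 in place of -0.12. With length centring it was -0.10 in LMC-like, -0.26 in VSMC-like, -0.16 in dendritic and -0.26 in T cell-like cells, and with centring on all genes -0.56 in VSMC-like and -0.35 in T cell-like cells. With mean CPM of cells it was -0.53 in VSMC-like, -0.02 in Lyve1-low macrophage-like, -0.58 in dendritic, -0.56 in neutrophil-like and -0.30 in T cell-like cells. After thinning it was -1.16, -0.05, -1.27 and -0.74 in VSMC-like, Lyve1-low, neutrophil-like and T cell-like cells, and with clusters -0.46 in inflammatory monocyte-like, -0.71 in neutrophil-like and -0.35 in T cell-like cells. The causes were not tested.

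Between stromal and macrophage-like cells 10 members were called, and 7 to 14 when 1 library was left out (7 without WT, 14 without tdT1). Without the replicate block 4 were called. DESeq2, DESeq2 size factors and the removal of predicted doublets each gave 15. Trib3, the 1 call between LMC-like and VSMC-like cells, was lost with DESeq2 size factors (0 calls; 5 members at an unadjusted p under 0.05 in the main test), without doublets (0) and without the replicate block (0). Leaving out 1 library gave 0 to 1 calls, and the test without a filter on low counts 2. The 1 call, without tdT1, was an ERAD and translocation member lower in LMC-like cells, with 0 calls in the Atf4 arm. DESeq2 also gave 1 call, among the sensors with Xbp1 and lower in LMC-like cells, with 0 in the Atf4 arm.

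WT and TNF-Tg are 1 library each, so no alternative bears on the spread between animals. Depth limits Derl3, Chac1, Trib3 and Asns, which had under 20 UMIs in most classes, and the macrophage-like cells of the tdT libraries.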
